A study of Mus musculus with 25 samples.

Results

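The 5 genes described here, Grhl1, Grhl2, Grhl3, Ovol1 and Ovol2, encode transcription factors of the Grainyhead and Ovo families. They were chosen by name for their roles in the skin barrier, and they are 5 of the 24061 gene rows of the count table that covers 21 RNA libraries of mouse skin. The same genes were also followed in 4 lists of ATAC-seq peaks, which mark open chromatin, within each gene span and 20 kb to either side. The study compared stem cells of the hair follicle (HFSC) and of the epidermis (EpdSC) in resting skin, after wounding and in squamous tumours.

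All RNA libraries came from female B6 mice, and the labels give postnatal day 60. In the set named CL, HFSC were sorted as Lineage Neg, IntA6Hi, CD34+ and Sca1-, and EpdSC as Lineage Neg, IntA6Hi, CD34- and Sca1+, with 2 libraries of each. After wounding, CL cells carried Sox9CreER;R26-YFP, in which the Sox9 promoter drives a drug-inducible Cre that switches on YFP. Wounded cells of the HFSC lineage were YFP+ and wounded EpdSC were YFP-, both Lineage Neg and IntA6Hi, again with 2 libraries of each. The gate and the mouse line therefore changed together with the wound, and these cannot be told apart. The set named BK held 2 HFSC and 2 EpdSC libraries with the CL gates for resting cells and 1 library of wounded EpdSC, sorted as Lineage Neg and IntA6Hi with no YFP gate named. The count column of that wounded library ends in A5pos3, which its title lacks, so a further selection of its cells is not known. The set named DS held 6 libraries of GFP+ cells from grafted tumours, 1 with high and 1 with low integrin alpha 6 for each of 3 genotypes named HRas, HRas TbrKO and TbrKO. It also held an HFSC and an EpdSC library, 1 of each, with Tbr in their sample names, a term the labels do not explain. Groups were set from the cell type label of each library, because the protocol text is shared within sets: that of CL names both P60 skin and wound biopsies without saying which library is which. That of DS and BK gives the wound biopsies by a run of sample numbers that, read in the order listed, would also take in the BK libraries labelled as resting. The ATAC-seq samples came from female CD1/B6 mixed mice. They were HFSC and EpdSC from back skin at postnatal day 50, grafted tumour cells of oncogenic HRas-induced carcinomas gated on IntA6Hi, B1Hi and GFP, and wound cells gated on integrin alpha 6 and Sca1, from full- and partial-thickness wounds taken as 1 sample. The labels do not state that replicate libraries stem from different animals, and a p-value here therefore measures the spread between samples alone, which can be technical.

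Grainyhead factors bind a palindromic DNA motif and switch on genes of cell junctions, the cornified envelope and lipid barrier. Grhl1 is known for desmosomal cadherins and hair anchorage, Grhl2 for epithelial junctions and E-cadherin, and Grhl3 for barrier formation, epidermal migration and wound closure. Ovol1 and Ovol2 are zinc finger repressors: Ovol1 is known for the exit of epidermal progenitors from the cell cycle, and Ovol2 for holding back Zeb1 and the mesenchymal state.

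Promoter sequence was at hand for 3 of the 5 genes, and it is shown because the chromatin at these starts differed in where peaks were called. The sequences are from RefSeq on GRCm38.p6, the assembly that mm10 names, and give the 250 bases before the annotated start, 5′ to 3′ on the strand of the gene. Capitals mark every CG pair, the target of DNA methylation.
Grhl1, chr12:24572037-24572286, plus strand: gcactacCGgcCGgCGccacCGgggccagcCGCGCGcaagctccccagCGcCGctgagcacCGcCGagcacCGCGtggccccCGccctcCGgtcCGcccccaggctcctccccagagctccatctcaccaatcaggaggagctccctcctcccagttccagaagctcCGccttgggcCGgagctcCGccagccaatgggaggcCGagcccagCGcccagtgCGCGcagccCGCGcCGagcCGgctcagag
Grhl3, chr4:135573633-135573882, minus strand: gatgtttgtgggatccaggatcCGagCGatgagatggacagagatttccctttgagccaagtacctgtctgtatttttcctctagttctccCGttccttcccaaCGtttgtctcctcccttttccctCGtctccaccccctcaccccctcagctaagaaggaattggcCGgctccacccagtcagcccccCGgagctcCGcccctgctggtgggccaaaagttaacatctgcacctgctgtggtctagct
Ovol2, chr2:144331363-144331612, minus strand: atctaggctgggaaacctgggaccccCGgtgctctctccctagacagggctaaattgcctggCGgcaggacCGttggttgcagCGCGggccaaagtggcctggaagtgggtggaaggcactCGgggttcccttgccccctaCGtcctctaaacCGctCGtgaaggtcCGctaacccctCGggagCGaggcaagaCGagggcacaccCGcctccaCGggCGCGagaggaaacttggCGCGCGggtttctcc
The Grhl1 promoter held 27 CG pairs and had a GC content of 75.6%. That CG count stood at percentile 92.4 of 32851 promoter entries for 27025 genes, whose median was 6 CG pairs. The Ovol2 promoter held 20 CG pairs at a GC content of 65.2%, and the Grhl3 promoter 8 CG pairs at 56.0%. A further annotated Grhl1 start, preceded by chr12:24580469-24580718, held 0 CG pairs and no peak in any of the 4 lists. The Grainyhead motif was searched as AACCGGTT, which reads alike on both strands, and the Ovol motif as CCGTTA on either strand. AACCGGTT was found in 38 promoters, 0.116% of all, and CCGTTA in 715, or 2.18%. Neither string occurred in the promoter windows of Grhl1, Grhl3 or Ovol2.

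Library totals ranged from 14216472 to 36425082 counts, and the 10 most abundant genes took from 6.01% to 20.4% of them. The lowest count of any of the 5 genes in any library was 47, for Ovol2, so all 5 passed the filter on low counts in each of the 15 comparisons made. Of 7 listed HFSC genes, 6 were higher in HFSC than in EpdSC over CL and BK and none was lower. In that comparison 23.6% of all genes passed. Lhx2 was higher by 6.44 on the log2 scale (adjusted p = 1.14e-05). Cd34 was higher by 7.16 (adjusted p = 3.96e-05), but these cells were sorted on CD34, so its difference does not check the sort. In the wounded HFSC lineage all 7 were lower than in HFSC, where 46.1% of all genes passed. Cd34 fell by 7.87 on the log2 scale (adjusted p = 8.1e-05), but no CD34 gate is named for the wounded cells. Every adjusted p is from the quasi-likelihood test of edgeR with Benjamini-Hochberg adjustment over all genes tested, unless another tool is named.

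Levels are CPM values, a gene's count scaled to the library total, after TMM scaling over the 21 libraries. They are not corrected for transcript length, so they show how 1 gene differs between libraries and not which gene is more abundant. In bulk samples, fewer cells of a type and less RNA per cell cannot be told apart. Several genes below had wounded libraries clear of resting ones. The share of all genes that separate so was not counted, so such a gap does not set a gene apart. Over all libraries the highest level was 6.04 times the lowest for Grhl1, 6.23 for Grhl2, 10.9 for Grhl3, 11.5 for Ovol1 and 10.3 for Ovol2.

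Grhl1 had its highest levels in the wounded HFSC lineage, at 239 and 234 CPM. Resting CL HFSC stood at 116 and 138 CPM, CL EpdSC at 118 and 102 CPM, and wounded CL EpdSC at 95.2 and 155 CPM. In the BK set, Grhl1 read 54.8 and 94.7 CPM in HFSC, 94.5 and 142 CPM in EpdSC, and 129 CPM in wounded EpdSC. Only the wounded HFSC lineage stood clear of every other library, and the ranges of wounded and resting EpdSC overlapped. Tumours gave 61.2 and 64.8 CPM for HRas, 128 and 138 CPM for HRas TbrKO, and 39.6 and 132 CPM for TbrKO, each as high and then low integrin alpha 6. The Tbr libraries read 159 CPM in HFSC and 144 CPM in EpdSC. The lowest Grhl1 level of the 21 was thus the TbrKO library with high integrin, while its low-integrin partner lay among the resting stem cells.

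Grhl2, the family member tied most closely to epithelial junctions, went the other way. Resting CL cells held 153 and 141 CPM in HFSC and 166 and 171 CPM in EpdSC, and the wounded libraries held 97.3 and 86.4 CPM in the HFSC lineage and 32.6 and 62.2 CPM in EpdSC. In the BK set, HFSC held 123 and 100.7 CPM, EpdSC 117 and 203 CPM, and wounded EpdSC 62.6 CPM. All 5 wounded libraries were below all 10 resting ones, whose lowest was 100.7 CPM. The tumour libraries held 79.4 and 65.8 CPM for HRas, 80.9 and 59.9 CPM for HRas TbrKO, and 116 and 79.3 CPM for TbrKO, high gate first. Grhl2 read 119.5 CPM in Tbr HFSC and 172 CPM in Tbr EpdSC. The high gate was above the low gate in each of the 3 tumour genotypes, and 1 tumour library, TbrKO with high integrin, overlapped the resting range.

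Grhl3, the family member known for barrier formation and wound closure, was high in wounded CL cells, with 97.4 and 81.5 CPM in the HFSC lineage and 86.4 and 82.6 CPM in EpdSC. Resting CL cells held 27.9 and 30.7 CPM in HFSC and 42.4 and 30.01 CPM in EpdSC. BK cells held 8.92 and 25.2 CPM in HFSC, 36.01 and 33.8 CPM in EpdSC, and 41.5 CPM in wounded EpdSC. The 4 wounded CL libraries stood clear of the 10 resting ones, whereas the wounded BK library fell just under the highest of them, at 42.4 CPM. Tumours held 28.6 and 35.2 CPM for HRas, 57.1 and 68.6 CPM for HRas TbrKO, and 19.1 and 87.2 CPM for TbrKO, high gate first. The Tbr stem cells held 36.8 CPM in HFSC and 29.4 CPM in EpdSC. The low gate was above the high gate in each tumour genotype, with the widest gap in TbrKO, whose low-gate library was above 3 of the 4 wounded CL libraries.

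Ovol1, the repressor known for the exit from proliferation, also had its highest levels after wounding. Wounded EpdSC held 177 and 133 CPM in CL and 144 CPM in BK, and the wounded HFSC lineage held 136 and 100.4 CPM. Resting levels were 19.9 and 34.99 CPM in CL HFSC, 49.4 and 50.9 CPM in CL EpdSC, 15.4 and 31.1 CPM in BK HFSC, and 60.7 and 51.7 CPM in BK EpdSC. All 5 wounded libraries were above all 10 resting ones, and within CL and within BK every EpdSC library was above every HFSC library. Tumours held 34.5 and 35.2 CPM for HRas, 69.4 and 70.1 CPM for HRas TbrKO, and 43.9 and 67.2 CPM for TbrKO, high gate first. The Tbr stem cells, at 82.9 CPM in HFSC and 85.6 CPM in EpdSC, were above all other resting libraries and above all tumours.

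Ovol2, the repressor known for opposing Zeb1, read 14.1 and 12.2 CPM in CL HFSC, 11.5 and 20.1 CPM in CL EpdSC, 17.8 and 21.3 CPM in BK HFSC, and 24.1 and 15.8 CPM in BK EpdSC. After wounding it read 3.54 and 3.87 CPM in the HFSC lineage, 2.34 and 3.53 CPM in CL EpdSC, and 8.21 CPM in BK EpdSC. Tumours held 5.02 and 4.28 CPM for HRas, 4.93 and 3.04 CPM for HRas TbrKO, and 9.75 and 7.93 CPM for TbrKO, high gate first, and the Tbr stem cells 14.5 CPM in HFSC and 14.3 CPM in EpdSC. All wounded and all tumour libraries lay below the lowest resting library, at 11.5 CPM, so that Ovol1 and Ovol2 were at opposite ends of their ranges in the wounded cells.

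**Figure D1:**
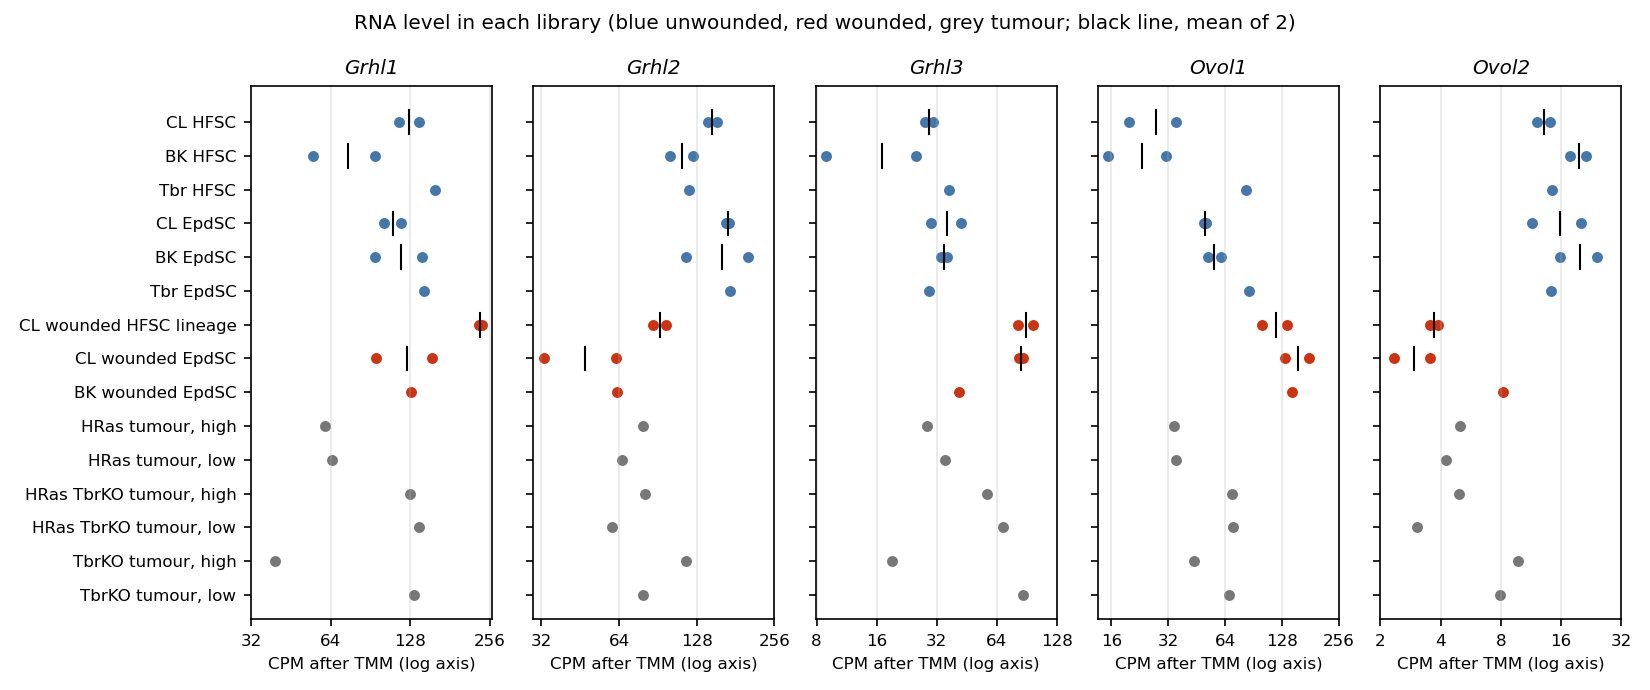
Level of each gene in CPM after TMM scaling on a log axis, 1 point per library, grouped by population and set. Grhl2 and Ovol2 points of wounded cells lie below those of resting cells, Ovol1 points lie above them, and Grhl3 points do so in the 4 CL libraries.

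Ordered by group mean, Grhl1 was led by the wounded HFSC lineage, and CL HFSC, wounded CL EpdSC, BK EpdSC and CL EpdSC followed one another with overlapping ranges. For Grhl2, CL EpdSC, BK EpdSC and CL HFSC overlapped near the top, below Tbr EpdSC, and wounded CL EpdSC was last, overlapping HRas TbrKO with low integrin. For Grhl3, the wounded HFSC lineage led and overlapped TbrKO with low integrin, and BK HFSC was last. For Ovol1, both wounded EpdSC groups overlapped at the top, and HRas with high integrin, CL HFSC and BK HFSC overlapped at the bottom. For Ovol2, BK EpdSC, BK HFSC and CL EpdSC overlapped at the top and wounded CL EpdSC was last. Most of these groups hold 1 library and have no spread of their own.

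The first question was how the genes differ once hair follicle stem cells have been wounded. In CL, Grhl1, Grhl3 and Ovol1 rose and Ovol2 fell in the wounded HFSC lineage, so 4 of the 5 genes passed the test, in a comparison where 46.1% of 14831 genes tested did. Grhl3, which promotes epidermal migration and barrier repair, was 3.03-fold higher (log2 fold change 1.60 ± 0.22, SE, adjusted p = 0.000935, n = 2 against 2). Ovol1 was 4.26-fold higher (2.09 ± 0.31, adjusted p = 0.00138), and Grhl1 was 1.85-fold higher (0.89 ± 0.26, adjusted p = 0.0264). Ovol2 was 3.57-fold lower (-1.84 ± 0.36, adjusted p = 0.00448). Grhl2 had a log2 fold change of -0.69 ± 0.29 and did not pass (adjusted p = 0.0896). The Grhl1 call was lost in 6 of 14 alternative fits, with an adjusted p of up to 0.129, and those of Grhl3, Ovol1 and Ovol2 were kept in all 14. Grhl2 passed in 3 of the 14: at -0.66 with only the groups compared (adjusted p = 0.0218), and at -0.71 and -0.68 without wounded CL EpdSC replicate A or B (adjusted p = 0.00647 and 0.00577).

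In wounded CL EpdSC, Grhl3 and Ovol1 rose and Grhl2 and Ovol2 fell, again 4 of 5, where 58.4% of genes tested passed. Ovol2 was 5.39-fold lower (log2 fold change -2.43 ± 0.37, adjusted p = 0.00111), and Grhl2 was 3.58-fold lower (-1.84 ± 0.30, adjusted p = 0.00162). Ovol1 was 3.06-fold higher (1.61 ± 0.31, adjusted p = 0.00318), and Grhl3 was 2.31-fold higher (1.21 ± 0.22, adjusted p = 0.00243). Grhl1 differed by 0.17 ± 0.26 on the log2 scale and did not pass (adjusted p = 0.587). All 4 calls were kept in all 14 alternative fits. With shares of called genes this high, 4 calls of 5 do not set these genes apart from the rest of the table.

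**Figure D2:**
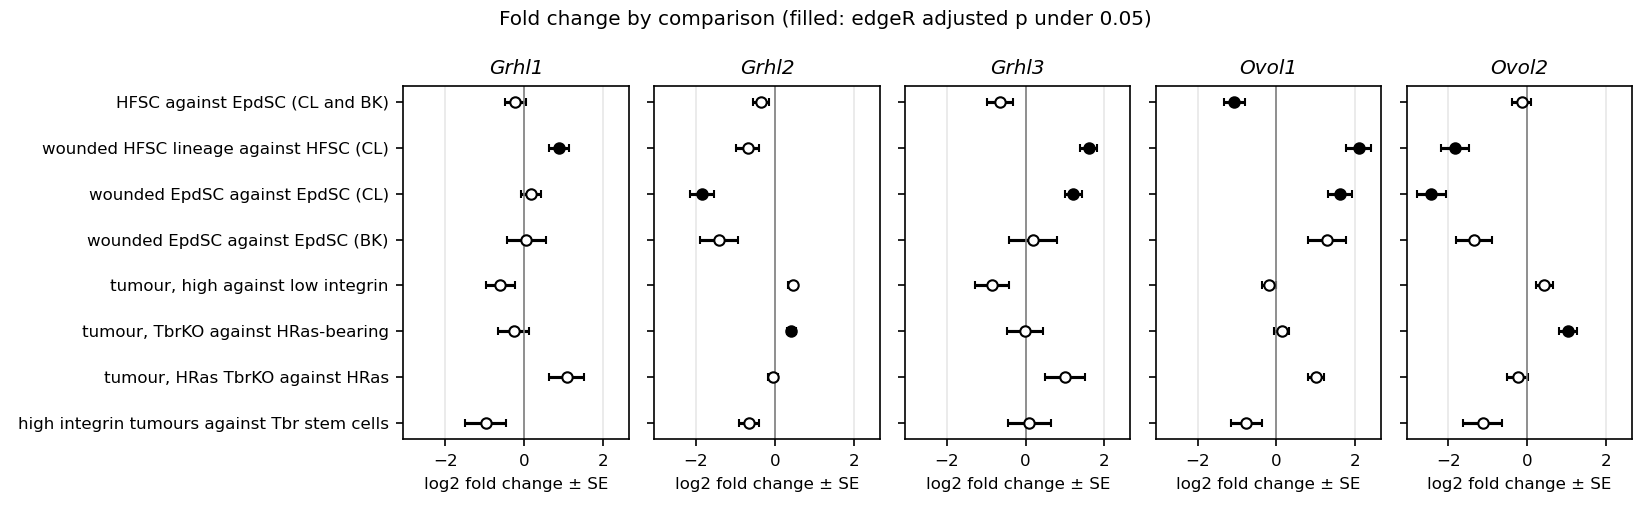
Log2 fold change of each gene in each comparison from edgeR, with bars of 1 SE, filled where the adjusted p is below 0.05. In both CL wound comparisons Grhl3 and Ovol1 lie above 0 and Ovol2 lies below it, and Grhl2 is filled only in EpdSC.

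Grhl2 has a span of 130.7 kb, longer than that of 92.6% of 22549 genes, and span length moved with the response in the wounded EpdSC. In CL EpdSC the median log2 fold change was 0.56 in the shortest quintile of genes by span and -0.82 in the longest, with median spans of 3.88 and 118 kb. In the HFSC lineage the same medians were -0.04 and -0.43, and in BK EpdSC 0.02 and -0.26. Grhl2 fell by more than the median of the longest quintile in CL EpdSC. The spans of Ovol2, Grhl3 and Ovol1 were 26.9, 31.7 and 11.4 kb, nearer the middle of the genome. Span is not transcript length, and its part in the Grhl2 result was not tested.

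Markers of other cells also moved in the wounded CL EpdSC. All 6 fibroblast markers and all 6 leukocyte markers were higher there than in EpdSC. Summed fibroblast markers were 645.9 and 691.5 CPM in wounded EpdSC against 2.85 and 2.51 CPM in EpdSC, and summed leukocyte markers 3394 and 2680 CPM against 30.8 and 19.3 CPM, with none of the 12 genes at 0 in the wounded libraries. The wounded HFSC lineage had lower sums, at 9.81 and 6.60 CPM for fibroblast markers and 27.7 and 22.8 CPM for leukocyte markers. In the single wounded BK library these sums were 2.29 and 20.8 CPM. The part of these cells in the results of the 5 genes in wounded CL EpdSC was not tested. Suprabasal markers, of which 4 of 5 listed genes are in the table and none was at 0, summed to between 22303 and 36877 CPM in the 4 wounded CL libraries, to 6706 CPM in the wounded BK library and to between 1912 and 13512 CPM in resting ones; their part was not tested either.

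Whether the wound response differed by lineage was tested as an interaction in CL, where 15.8% of genes passed and none of the 5 did. The largest difference was in Grhl2, whose response was 1.15 ± 0.42 higher on the log2 scale in the HFSC lineage (adjusted p = 0.0902). It was the 1 gene of the 5 with an unadjusted p under 0.05, and DESeq2 called it (adjusted p = 0.0489). Adjusted p was 0.188 for Grhl1, 0.357 for Grhl3, 0.420 for Ovol1 and 0.392 for Ovol2. Without wounded CL EpdSC replicate B, edgeR called Grhl2 at 1.73 ± 0.23 (adjusted p = 0.00232) and Grhl1 at 1.14 ± 0.26 (adjusted p = 0.0119). Whether Grhl2 differed by lineage in its wound response therefore rests on that library and on the tool.

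Set directly against wounded EpdSC, the wounded HFSC lineage held more Grhl1, by 0.91 ± 0.26 on the log2 scale (adjusted p = 0.0487), and 1 of the 5 genes passed where 19.2% of all genes did. That call was lost in 10 of 14 alternative fits, with an adjusted p of up to 0.222. Grhl2 was at 0.95 ± 0.30 (adjusted p = 0.0559) and passed in 4 of the 14. Those were RLE scaling (adjusted p = 0.0493), DESeq2 (adjusted p = 0.0181), no filter on low counts (adjusted p = 0.0352), and the fit without wounded CL EpdSC replicate B, at 1.52 (adjusted p = 0.00237). Ovol2 was at 0.33 (adjusted p = 0.495), Ovol1 at -0.39 (adjusted p = 0.320) and Grhl3 at 0.08 (adjusted p = 0.791). This contrast and the wound comparisons share the same 4 wounded libraries.

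The BK set gave a further wounded EpdSC library, set against 2 resting ones. None of the 5 genes passed, where 7.97% of 14663 genes did. Grhl2 was at -1.42 ± 0.49 on the log2 scale (adjusted p = 0.104), Ovol2 at -1.34 ± 0.46 (adjusted p = 0.102), Ovol1 at 1.30 ± 0.48 (adjusted p = 0.120), Grhl3 at 0.19 ± 0.62 (adjusted p = 0.852) and Grhl1 at 0.05 ± 0.50 (adjusted p = 0.951). For 3 of them p was below 0.05 before adjustment, and DESeq2 called Grhl2 (adjusted p = 0.036). Without BK EpdSC replicate 1, and likewise without replicate 2, Grhl2 and Ovol2 passed in edgeR, but those fits set 1 library against 1, with the spread taken from the 2 BK HFSC libraries alone, and give no further support. A fit of wounded and resting EpdSC over both sets with the set as a term, added after the data were seen, called 3 of the 5, against 18.6% of all genes. Those were Grhl2 at -1.69 (adjusted p = 0.0252), Ovol1 at 1.49 (adjusted p = 0.0210) and Ovol2 at -1.99 (adjusted p = 0.0264). Without 1 of BK EpdSC replicate 2, CL EpdSC replicate A, CL EpdSC replicate B or wounded CL EpdSC replicate B, none of the 5 was called, and without wounded CL EpdSC replicate A, 1 was. Without the wounded BK library 4 were, Grhl3 among them at 1.27 (adjusted p = 0.0128). The test of a difference between sets called 16.5% of genes and none of the 5, with Grhl3 at -1.18 ± 0.50 for BK minus CL (adjusted p = 0.124); Grhl3 alone had a p below 0.05 before adjustment, and DESeq2 called none of the 5.

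In resting skin the comparison asks which of the genes separate the 2 stem cell types. Ovol1 was lower in HFSC than in EpdSC over CL and BK together, at -1.06 ± 0.28 on the log2 scale or 2.09-fold lower (adjusted p = 0.0232, 4 libraries against 4), and it was the only 1 of the 5 to pass, where 23.6% of 13870 genes did. The call was lost without BK HFSC replicate 1, CL HFSC replicate A or CL EpdSC replicate B. Ovol1 was lower in HFSC in both sets taken alone, at -0.87 ± 0.30 in CL (adjusted p = 0.125) and -1.28 ± 0.42 in BK (adjusted p = 0.0985). None of the 5 passed in CL, with 10.8% of genes called, or in BK, with 14.4%. Ovol1 had an unadjusted p under 0.05 in each set, DESeq2 called it in BK (adjusted p = 0.0276) and not in CL, and without CL HFSC replicate B edgeR called it in CL (adjusted p = 0.0477). The test of a difference between the sets called 2.32% of all genes and none of the 5 by edgeR or DESeq2, none of which had an unadjusted p under 0.05. Over both sets Grhl3 was at -0.66 (adjusted p = 0.181), Grhl2 at -0.35 (adjusted p = 0.250), Grhl1 at -0.22 (adjusted p = 0.604) and Ovol2 at -0.14 (adjusted p = 0.714). The 2 BK HFSC libraries differed in the suprabasal sum, at 2597 and 7214 CPM, and the library with the lower sum also had the lower Grhl1, Grhl3 and Ovol1. Over both sets, 3 of 5 fibroblast markers and 3 of 4 melanocyte markers tested were higher in HFSC, and none of them was lower. The part of suprabasal and of these other cells was not tested.

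In tumours, TbrKO cells held more Grhl2 and Ovol2 than the HRas-bearing genotypes. Ovol2 was 2.04-fold higher (log2 fold change 1.03 ± 0.23, adjusted p = 0.0193) and Grhl2 1.34-fold higher (0.42 ± 0.12, adjusted p = 0.0363), 2 of the 5 where 41.8% of 15113 genes passed. The fit held 2 TbrKO libraries against 4 and had the integrin gate as a term. Each genotype had 1 library per gate and no replicate. The SE and p-values therefore measure how far the gate differences disagree between genotypes, and not the spread between tumours of a genotype. Ovol1 was at 0.14 (adjusted p = 0.572), Grhl1 at -0.27 (adjusted p = 0.615) and Grhl3 at -0.02 (adjusted p = 0.974). The 2 TbrKO libraries disagreed for Grhl1 and Grhl3: without the high-integrin library Grhl1 was at 0.51 (adjusted p = 0.0286) and Grhl3 at 0.85 (adjusted p = 0.00324), and without the low-integrin library they were at -1.16 (adjusted p = 0.000994) and -1.08 (adjusted p = 0.00183). The Grhl2 call was lost in 5 of 9 alternative fits, with an adjusted p of up to 0.195: without any 1 of the 4 HRas-bearing libraries, and without the high-integrin TbrKO library (adjusted p = 0.0987). The Ovol2 call was lost in 3 of them, without either HRas library or the low-integrin HRas TbrKO library, with an adjusted p of up to 0.111. Markers of other cells differed in the same comparison. All 4 endothelial markers were lower in TbrKO, with sums of 47.7 and 48.2 CPM against 90.6 to 222 CPM, and 3 of 5 leukocyte markers tested were lower, with sums of 179 and 573 CPM against 257 to 1280 CPM. Of 4 suprabasal markers 3 were higher and 1 lower, with sums of 1531 and 3372 CPM against 406 to 1890 CPM. The part of these cells in the Grhl2 and Ovol2 results was not tested.

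HRas TbrKO tumours were set against HRas tumours, 2 libraries against 2, and edgeR called none of the 5 and 0% of all genes (0 genes). The 2 libraries of a genotype were its 2 gates and not replicates, in the same fit as for TbrKO. An unadjusted p under 0.05 was found for 1701 genes, and 410 genes passed in DESeq2. Grhl1 was at 1.09 ± 0.45 on the log2 scale (adjusted p = 0.458), Grhl3 at 0.99 ± 0.51 (adjusted p = 0.544) and Ovol1 at 1.01 ± 0.21 (adjusted p = 0.251), and for all 3 both HRas TbrKO libraries were above both HRas libraries. Ovol1 alone had an unadjusted p under 0.05 in edgeR, and DESeq2 called it alone of the 5, at 1.02 (adjusted p = 0.00793). In edgeR, 3 of the 5 were called without either one of the TbrKO libraries, which share the fit.

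Between the integrin gates of the 3 tumour genotypes, in the same fit without replicates, none of the 5 passed, with 3.15% of genes called. Grhl2 alone had a p below 0.05 before adjustment, and DESeq2 called none of the 5. Grhl2 was at 0.45 ± 0.11 for high minus low (adjusted p = 0.0961), Ovol2 at 0.44 (adjusted p = 0.299), Grhl3 at -0.86 (adjusted p = 0.296), Grhl1 at -0.60 (adjusted p = 0.382) and Ovol1 at -0.19 (adjusted p = 0.541). All 6 fibroblast markers were lower in the high gate, with sums of 888 to 2137 CPM there and 5516 to 11150 CPM in the low gate, and none at 0; their part was not tested. The 3 high-integrin tumours against the 2 Tbr stem cell libraries gave no call among the 5 and 21.5% of 15471 genes overall. No group of that fit held replicates, and its spread holds differences between genotypes and between HFSC and EpdSC. All but Grhl3 were lower in tumours by estimate, from -0.66 for Grhl2 (adjusted p = 0.101) to -1.13 for Ovol2 (adjusted p = 0.135), and Grhl3 was at 0.10 (adjusted p = 0.902). Grhl2 alone had a p below 0.05 before adjustment, and DESeq2 called none of the 5. Without the TbrKO library, Grhl2 passed in edgeR at -0.84 (adjusted p = 0.0447). All 6 fibroblast and all 4 endothelial markers were higher in these tumours, with fibroblast sums of 888 to 2137 CPM against 8.15 and 36.3 CPM and endothelial sums of 47.7 to 162 CPM against 1.29 and 1.93 CPM, and their part was not tested.

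Because both members of a pair are counted in the same library, their ratio does not depend on scaling between libraries. It is given as a description, since the pairs were chosen with the levels known. The ratio of Grhl3 to Grhl2 counts ran from 0.0723 to 0.309 in the 10 resting libraries, with a median of 0.200, and from 0.663 to 2.65 in the 5 wounded ones, with a median of 1.00. The ratio of Ovol1 to Ovol2 counts ran from 0.864 to 6 in resting libraries, with a median of 2.70, and from 17.5 to 75.8 in wounded ones, with a median of 37.7. Neither ratio overlapped between resting and wounded libraries, BK included. How many other pairs of genes separate in this way was not counted. In tumours the Grhl3 to Grhl2 ratio ran from 0.164 to 1.15 and the Ovol1 to Ovol2 ratio from 4.50 to 23.0, both overlapping the resting range at their low end, with the TbrKO library of the high gate lowest in each.

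**Figure D3:**
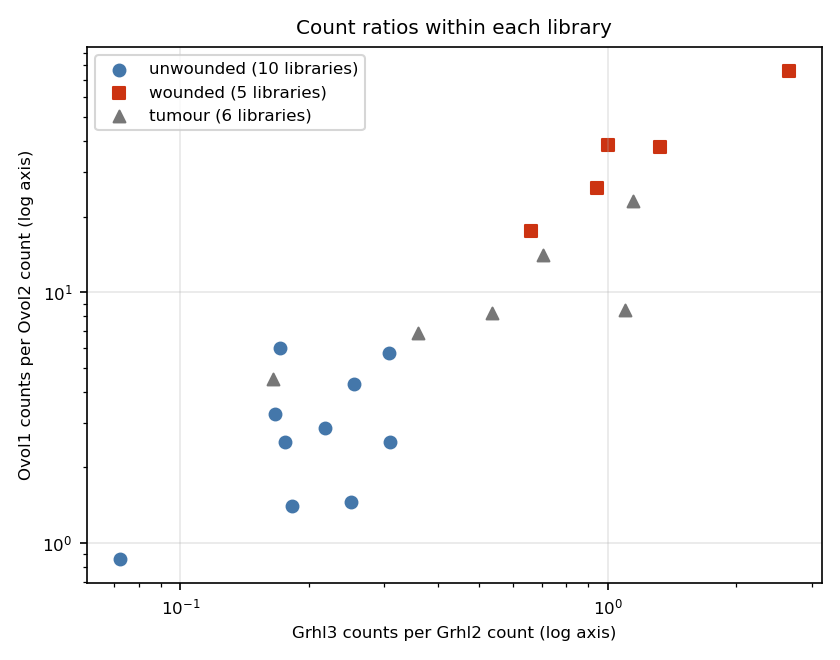
Ratio of Grhl3 to Grhl2 counts and of Ovol1 to Ovol2 counts in each of the 21 libraries, on a log axis and not corrected for length. Every wounded library lies above every resting library in both ratios, and the tumour libraries lie between or overlap them.

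Over the 21 libraries, Grhl3 and Ovol1 had a Pearson r of 0.79 on log2(CPM + 1), Grhl2 and Ovol2 of 0.78, and Grhl1 and Grhl3 of 0.69, while Grhl3 and Ovol2 had -0.71 and Grhl1 and Grhl2 0.03. These values describe libraries that share sets, gates and wounding, so they follow the group differences above. Among 13450 genes with a mean of at least 1 CPM, the genes most like Grhl3 were Ly6d (0.91), Nrarp (0.88), Lypd3 (0.87), Metrnl (0.84) and Cyp4f39 (0.84). Lypd3 was also among the 5 most like Ovol1 (0.88), after 1810037I17Rik (0.92), Higd1a (0.91), Abhd5 (0.90) and Tmem154 (0.90). For Grhl1 they were Gpr111 (0.89), Mroh6 (0.81), Abca12 (0.79), Muc15 (0.78) and Lipm (0.78). Grhl2 was most like Mdc1 (0.98), Gltscr1l (0.97), Arhgef12 (0.96), Fryl (0.95) and Zkscan7 (0.95), and Ovol2 most like Ccdc3 (0.95), Arhgap44 (0.94), Cdh13 (0.93), Ccdc57 (0.93) and Gid4 (0.93).

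Genes known as Grainyhead targets in epithelia were followed beside the 5 regulators. Of 20 such genes, a list that includes Ovol1 and Ovol2, 11 were higher and 4 lower in the wounded HFSC lineage, with a median log2 fold change of 0.92 against -0.10 over all genes. In wounded CL EpdSC 11 were higher and 3 lower, with a median of 0.95 against -0.04. The shares of all genes called in either direction were 46.1% and 58.4% in these comparisons. Of 14831 genes, 3167 were higher and 3668 lower in the HFSC lineage, and 4482 were higher and 4181 lower in EpdSC. The list was chosen with earlier results of these data known and was not tested as a set, so its counts are description alone. Tgm1, the transglutaminase that crosslinks the cornified envelope and a known Grhl3 target, stood at 72.8 and 69.4 CPM in the wounded HFSC lineage against 3.73 and 6.77 CPM in HFSC, a log2 fold change of 3.75 (adjusted p = 0.000121). In wounded EpdSC Tgm1 stood at 125 and 108 CPM against 1.34 and 1.80 CPM, a log2 fold change of 6.21 (adjusted p = 2.89e-05). Rab25, a GTPase of apical recycling, rose by 2.50 and 2.06 on the log2 scale (adjusted p = 0.000574 and 0.000935, HFSC lineage first), and Spint1, a protease inhibitor of the cell surface, by 0.98 and 2.34 (adjusted p = 0.00684 and 0.000135). The desmosomal Dsc1 rose by 3.10 and 3.55 (adjusted p = 0.000859 and 0.0004). Dsg1b, a desmosomal cadherin tied to Grhl1, rose by 3.43 in the HFSC lineage (adjusted p = 0.00102) and was at 0.98 in EpdSC without passing (adjusted p = 0.0898). The genes that fell were Tgm5, Arhgef19, Epcam and Ovol2 in the HFSC lineage and Arhgef19, Dsg1a and Ovol2 in EpdSC. Tgm5 fell by 2.61 in the HFSC lineage (adjusted p = 9.87e-05) and rose by 2.99 in EpdSC (adjusted p = 5.17e-05). Cdh1, which encodes E-cadherin and is named after its values were seen, was at -0.31 and -0.30 and did not pass (adjusted p = 0.228 and 0.210), with 748 to 923 CPM in the 4 wounded CL libraries and 923 to 1199 CPM in the resting ones. In BK wounded EpdSC none of the 20 was higher, and Arhgef19 and Prom2 were lower, at -2.20 (adjusted p = 0.0456) and -2.38 (adjusted p = 0.0475).

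Of the mesenchymal genes that Ovol and Grainyhead factors are known to oppose, 10 of 11 were tested. In the wounded HFSC lineage 1 was lower and none was higher, with a median of -0.62, where 46.1% of all genes were called. Ovol2 also fell there, and its part was not tested. Fn1, which encodes fibronectin, was the 1 that fell, by 3.54 (adjusted p = 0.000523). Markers of other cells moved in the same comparison. Of 6 leukocyte markers 4 were lower and 1 higher, and of 6 fibroblast markers 2 were lower and 1 higher. Of 5 melanocyte markers 3 were lower and none higher, and of 4 endothelial markers 2 were lower and 1 higher. The part of these cells was not tested. Vim, which encodes vimentin, stood at 6.55 and 7.28 CPM against 5.24 and 13.7 CPM in HFSC. Zeb1 and Twist1 were at 0 counts in both wounded HFSC libraries, and at means of only 0.25 and 0.40 CPM in HFSC. In wounded CL EpdSC, where 58.4% of all genes were called, 6 were higher and 1, the protease gene Mmp14, lower at -0.90 (adjusted p = 0.045). The number of calls does not set the list apart. The median was 4.45, or 3.14 with genes at 0 held at their bound. Vim stood at 323 and 393 CPM there against 6.74 and 5.01 CPM, and Twist1 and Twist2, at 0 in both EpdSC libraries, were at least 7.43- and 10.4-fold higher, with a floor of 3 counts per library. Those are the libraries in which the summed fibroblast markers were 645.9 and 691.5 CPM, and the part of such cells was not tested. In the wounded BK library, with a fibroblast sum of 2.29 CPM, Vim stood at 7.73 CPM against 15.2 and 13.1 CPM in EpdSC. None of the 9 genes tested passed, where 7.97% of all genes did.

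Cornified envelope genes, the end products of barrier formation, were higher in 7 and lower in 1 of 11 tested in each CL wound comparison, with medians of 2.84 in the HFSC lineage and 1.79 in EpdSC, where 46.1% and 58.4% of all genes were called in either direction. Sprr1b, a crosslinked envelope precursor, rose by 9.85 and 10.44 on the log2 scale (adjusted p = 1.36e-05 and 1.19e-05), and Casp14 by 3.65 and 1.59 (adjusted p = 4.03e-05 and 0.000512). Krt1, a suprabasal keratin, rose by 4.85 and 2.52 (adjusted p = 0.000212 and 0.00183). Lor, which encodes loricrin, fell by 2.52 in the HFSC lineage (adjusted p = 0.0238), and Ppl, which encodes periplakin, fell by 1.43 in EpdSC (adjusted p = 0.00139). Other barrier regulators did not move as 1 group: of 13 reported here, Zfp750, Maf and Ehf were higher and Klf4, Gata3, Dlx3 and Hopx lower in the HFSC lineage, and Cebpa and Prdm1 were higher and Klf4, Gata3, Trp63 and Hopx lower in EpdSC. Klf4 and Hopx fell in both, Klf4 with log2 fold changes of -2.43 and -3.73 (adjusted p = 0.0014 and 0.000205) and Hopx with -2.64 and -2.75 (adjusted p = 0.00029 and 0.00019). Of the CP2-type relatives, Ubp1 and Tfcp2l1 were lower in both, at -0.84 and -2.35 for Ubp1 (adjusted p = 0.0321 and 0.000344) and -3.62 and -3.03 for Tfcp2l1 (adjusted p = 0.00233 and 0.00806), while Tfcp2 was lower only by the EpdSC test (adjusted p = 0.026). Ovol3 had too few counts to be tested.

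**Figure D4:**
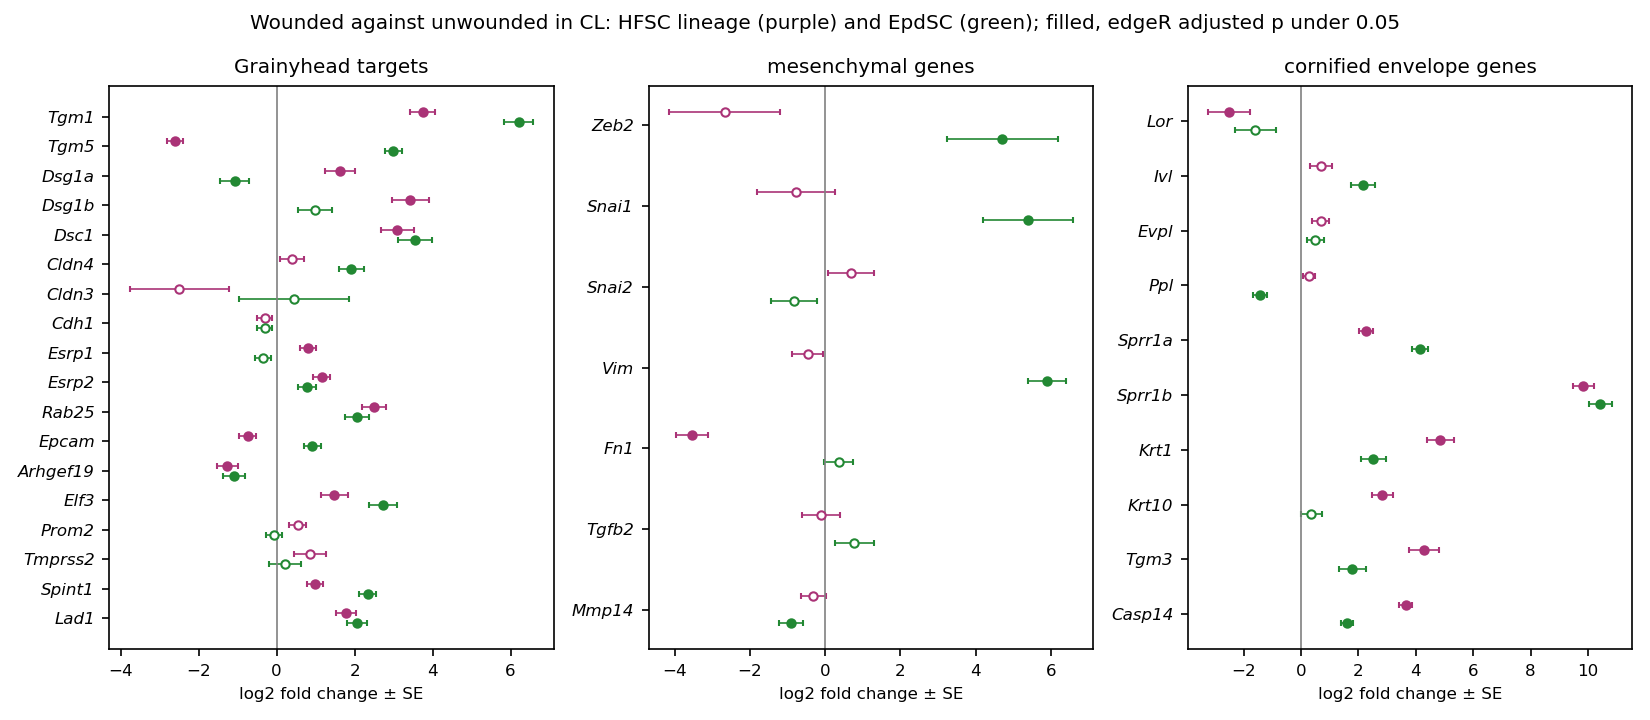
Log2 fold change of the companion genes in both CL wound comparisons, 1 point per gene and filled where the adjusted p from edgeR is below 0.05, leaving out genes at 0 in every library of a group. The cornified envelope points lie mostly above 0 in both, and the mesenchymal points do so in EpdSC.

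In TbrKO against HRas-bearing tumours, 9 of the 20 Grainyhead targets were higher and none lower, with a median of 0.21 against -0.03 over all genes. With 41.8% of all genes called in either direction, that number of calls is near the background. Arhgef19, a RhoA activator under Grhl3 control in wound repair, was higher by 1.43 ± 0.12 (adjusted p = 0.00212), Tgm5 by 1.90 ± 0.21 (adjusted p = 0.00322), Tmprss2 by 4.19 ± 0.43 (adjusted p = 0.00284), Dsg1a by 1.65 ± 0.28 (adjusted p = 0.00902) and Cdh1 by 0.56 ± 0.15 (adjusted p = 0.0324). Of the other barrier regulators 7 of 13 were higher and 2, Maf and Elf5, lower, and Ehf, an Ets factor, was higher by 2.79 ± 0.13 (adjusted p = 0.000816). In resting HFSC against EpdSC over both sets, Tgm5, Dsc1 and Cldn3 were higher and 7 Grainyhead targets lower, Ovol1 among them, where 23.6% of all genes were called. Tgm5 was higher in HFSC by 6.60 (adjusted p = 2.76e-06), and Prom2, an epithelial membrane protein gene, was at -1.44 (adjusted p = 0.0116).

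Open chromatin around the genes was read from 1 pooled peak list per population, with no replicates, so the counts that follow carry no test. The lists held 55435 peaks in HFSC, 25742 in EpdSC, 56865 in the wound cells and 54201 in the tumour cells, from 26825550, 13963471, 11140895 and 29579794 fragments. The EpdSC list is the shortest, so an absent EpdSC peak was not read as closed chromatin. Over the 5 windows there were 103 peaks, which merged into 52 regions. Of these, 7 were shared by all 4 populations, 14 were found in the wound list alone, 10 in HFSC alone, 7 in HFSC, wound and tumour, 7 in wound and tumour, and the other 7 in other combinations. The share of each combination around all genes was not counted. Such counts, here and gene by gene below, therefore do not set the 5 genes apart.

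**Figure D5:**
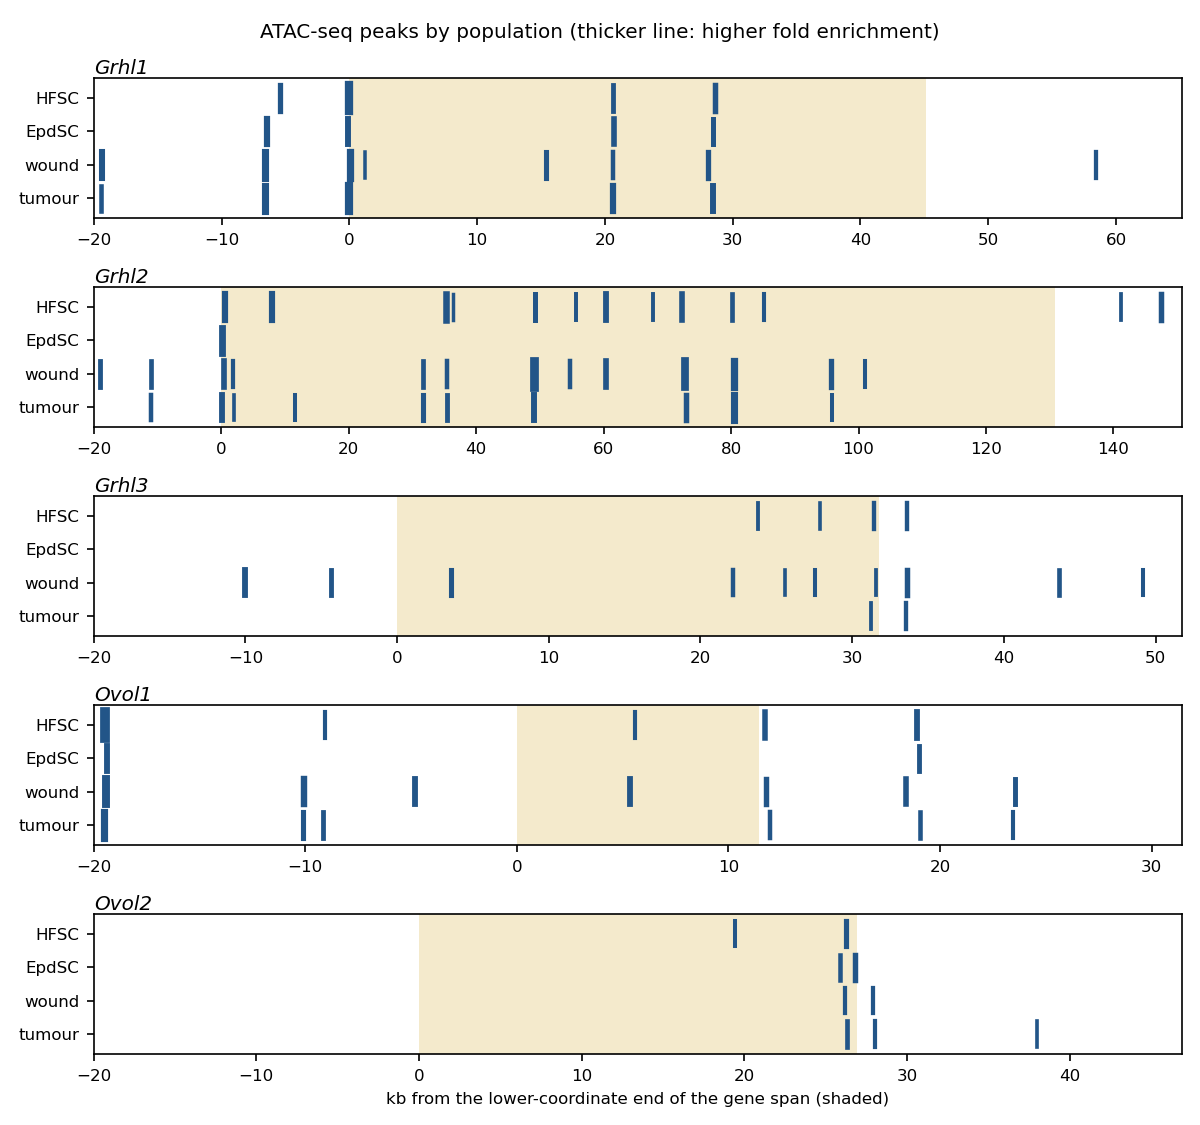
Peaks in the window of each gene by population, drawn by distance in kb from the edge of the gene span, with each point scaled by the fold enrichment the authors' peak caller gave. Grhl3 has 10 peaks in the wound row and none in the EpdSC row, and Ovol2 has 2 or 3 in every row.

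Grhl3 had 10 peaks in the wound list, 4 in HFSC, 2 in tumour and none in EpdSC. Its wound density of 13.9 peaks per 100 kb stood at percentile 98.3 of 21887 protein-coding genes in that list, and its tumour density at percentile 47.4. Of its 11 merged regions, 7 were found in the wound list alone, a share not counted for other genes. At the Grhl3 promoter printed above, only a wound peak touched the 250 bases, with a fold enrichment of 3.29. The HFSC and tumour peaks of the same region, chr4:135572936-135573769, lay inside the gene. The wound summit, at chr4:135573323, also lay inside the gene, beside the HFSC summit at chr4:135573329, where the fold was higher at 4.35. The contrast is thus in where the peaks end and does not show a promoter open in wound cells alone. The highest Grhl3 fold was 7.24, in the wound list, at chr4:135531264-135532502, which lies in the span of the neighbouring gene Stpg1.

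Ovol1 was also dense in peaks, with 7 in the wound list, 6 in tumour, 5 in HFSC and 2 in EpdSC. Its densities stood at percentile 98.1 in wound, 96.7 in tumour, 92.2 in HFSC and 82.3 in EpdSC. A region at chr19:5529239-5529976, 19.5 kb from the lower end of the span, was called in all 4 lists with folds of 14.8 in HFSC, 7.27 in EpdSC, 11.2 in wound and 9.75 in tumour. Another, at chr19:5544058-5544593, was found in the wound list alone, with a fold of 7.24. The regions at chr19:5560253-5561590 and chr19:5566635-5569038 overlap the span of Ap5b1, the neighbouring gene.

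Grhl1 had 8 wound peaks, 5 tumour, 4 HFSC and 4 EpdSC peaks, at percentiles 89.7, 75.4, 65.1 and 89.4. Its CG-rich promoter printed above lay under a peak in all 4 lists, at chr12:24571811-24572532, with folds of 11.9, 7.41, 9.91 and 11.7 in HFSC, EpdSC, wound and tumour. A pair of regions inside the span, at chr12:24592052-24593712 and chr12:24599494-24601244, was likewise called in all 4.

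Grhl2 had 13 HFSC and 13 wound peaks, 10 tumour peaks and 1 EpdSC peak. Its window is 170.7 kb, the widest of the 5, and its densities stood at percentile 84.1 in HFSC, 81.5 in wound, 75.3 in tumour and 36.5 in EpdSC. Of its 20 regions, 7 were in HFSC alone, and only chr15:37232165-37235099, at the lower end of the span, was called in all 4. The highest fold, 12.8, was in the wound list at chr15:37281769-37282194 within the span. Grhl2 RNA was lower after wounding, and its number of wound peaks equalled that in HFSC.

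Ovol2 had 2 peaks in each of HFSC, EpdSC and wound and 3 in tumour, at percentiles from 44.2 to 74.6. The region over its start, chr2:144330423-144332461, was called in all 4 lists, with folds of 5.93, 6.42, 4.09 and 4.97 in HFSC, EpdSC, wound and tumour. At the 250 bases printed above, HFSC, wound and tumour peaks touched the sequence, none with its summit there. The 2 EpdSC peaks of the region lay on either side of it. Ovol2 RNA was lower in wounded and tumour cells than in all resting cells, and the peak at its start was called in both populations.

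For reference, 39.2% of all promoter entries held an HFSC peak, 27.3% an EpdSC peak, 37.1% a wound peak and 34.9% a tumour peak. Among the 38 promoters with AACCGGTT the shares were 68.4%, 63.2%, 65.8% and 71.1%, and among the 715 with CCGTTA they were 54.8%, 38.6%, 51.2% and 49.9%. Those promoters held more CG pairs, with medians of 18 and 12 against 6, and that difference was not adjusted for.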

How the data were processed

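RNA was read from the deposited table of whole-number counts per gene in 21 libraries, which the authors made without normalisation from single-read TruSeq libraries, per the labels' protocols. The submitters' processing notes name mm10, Picard, STAR, Bowtie and MACS2 2.1.1.20160309. Which gene counter, annotation and strand setting served is not given in the sources used here. Every library column was matched to a sample by name, or by set code and number where column name and title were not identical, and 0 columns were left over. Peaks were called with MACS2 from pooled paired ends without a control, per the file headers. The deposited values of a peak are its summit pileup (a signal), its fold enrichment (a ratio over local background) and its −log10 q-value, all by the authors' peak caller.

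Counts were tested with edgeR 4.0.16 (R 4.3.3, limma 3.58.1) by the quasi-likelihood test after TMM scaling and filterByExpr, with an adjusted p threshold of 0.05. CL was fitted as 4 groups, BK as 3 groups, both sets together with the set as a term, and tumours by genotype and integrin gate. For high-integrin tumours against Tbr stem cells, the DS libraries were fitted as 3 groups: high gate, low gate and stem cells. That fit had no genotype or lineage term. The scripts were tested on simulated data. Library totals were at least 14216472 counts, so the spread between libraries and not counting error sets the precision. Alternatives were RLE scaling, DESeq2 1.42.0, no filter on low counts, each library left out, a replicate block, only the groups compared, and count tables with Ensembl IDs deposited for CL. A set-adjusted comparison of wounded EpdSC, its difference between sets and a crossed block were added after seeing the data. Named companion genes are those past the threshold, up to 4 per list and direction by adjusted p, and genes that a count of 5 or fewer needs. Likeness is Pearson's r of log2(CPM + 1) over 21 libraries. Peaks were assigned to a gene span with 20 kb on either side, and peaks were merged into regions where they shared at least 1 base. Motifs were searched in promoters and not in peaks, for which no genome sequence was used here. The 5 genes and the companion lists were chosen with earlier results of these data known. Some genes of the list of other barrier regulators are not reported here and are left out of its counts; they were not left out for their values, and a median of the rest would not stand for the list.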

Additional observations from a re-analysis of the deposited data

How the results depend on the processing

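Among the 5 genes, 764 of 840 results under alternative settings kept their side of the threshold. A change of sign was not counted where neither fit passed. Grhl1 in wounded CL EpdSC, for example, ran from -0.25 to 0.51 without a call. The other 76 crossed the threshold or changed sign with a call in either fit. Of 150 levels under other scalings, 110 stayed within a set bound. That bound was the SD between replicates or, in groups of 1 library, one taken from counting error alone. The number of the 5 genes called was 0 in CL HFSC against EpdSC and 0 to 1 with a library left out. In wounded HFSC lineage against HFSC it was 4, 5 with only the groups compared and 3 to 5 with a library left out, and in wounded CL EpdSC 4 throughout. In wounded HFSC lineage against wounded EpdSC it was 1, and 2 with RLE scaling, DESeq2 or no filter, which added Grhl2, 0 with the Ensembl tables or only the groups compared, and 0 to 2 with a library left out. In the CL difference of the wound responses it was 0, 1 with DESeq2 and 0 to 2 with a library left out. In BK HFSC against EpdSC it was 0, 1 with DESeq2 and 0 to 1 with a library left out, and in BK wounded EpdSC 0, 1 with DESeq2 and 0 to 2. Over CL and BK together it was 1 for HFSC against EpdSC, 0 to 1 with a library left out, and 3 for wounded EpdSC, 0 to 4. In TbrKO against HRas-bearing tumours it was 2 and 0 to 4, in HRas TbrKO against HRas tumours 0, 1 with DESeq2 and 0 to 3, and in high-integrin tumours against Tbr stem cells 0 and 0 to 1. Without the high-integrin TbrKO library, Grhl1 and Grhl3 in TbrKO against HRas-bearing tumours changed sign to 0.51 and 0.85, and without the low-integrin one they were at -1.16 and -1.08. The cause of these changes was not tested.

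Replicate numbers were not taken to pair the samples. Deviations of same-numbered libraries from their group means had correlations of -0.18 to 0.05 in CL and -0.24 in BK, except for 0.46 between the 2 wounded CL groups. With the replicate block, 0 of the 5 were called in wounded HFSC lineage against wounded EpdSC, where Grhl1 was at 0.94 (adjusted p = 0.0531), and 1 in BK HFSC against EpdSC, where Ovol1 was at -1.35 (adjusted p = 0.049). A crossed replicate block in BK called 2.

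Counts over all genes varied more. Against 1605 in CL HFSC against EpdSC, leaving out a library gave 505 to 2198 and other settings 1470 to 2502; against 6835 in the wounded HFSC lineage, 4064 to 7915; and against 8663 in wounded EpdSC, 5735 to 9382. Wounded lineages gave 2847, with 541 to 7460 and 1037 to 5336, and the difference of responses 2339, with 789 to 6499 and 1966 to 3909. BK gave 2108 for lineage, with 1260 to 6486 and 2124 to 3627, and 1169 for wounding, with 398 to 6848 and 989 to 3410. Over both sets the lineage gave 3273, with 2154 to 3704, its difference between sets 333, with 0 to 1329 and 339 to 769, wounded EpdSC 2636, with 0 to 6628 and 2705 to 4776, and its difference between sets 2448, with 707 to 4446 and 2437 to 4458. Tumour gates gave 476, with 0 to 3483 and 0 to 1692, TbrKO 6324, with 2774 to 7294, HRas TbrKO 0, with 0 to 1052 and 0 to 410, and tumours against stem cells 3323, with 909 to 5328 and 1192 to 5759. Peaks of the 5 genes rose from 103 to 179 with 50 kb windows. Peaks were also counted per gene and population with windows of 5 or 50 kb or with a -log10 q of at least 5. Of 60 such counts, 37 stayed within a set bound and 23 moved.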

Other observations

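Tfcp2l1, a CP2-type relative of the Grainyhead factors, stood at 52.0 and 62.4 CPM in the TbrKO tumour libraries with high and low integrin alpha 6. In the other 19 libraries it ranged from 0.0436 CPM, in wounded CL EpdSC replicate B, to 4.35 CPM, in CL HFSC replicate A. Over HRas-bearing tumours the log2 fold change was 5.31 ± 0.24 (edgeR, adjusted p = 0.000816).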
